A study of Mus musculus with 8 samples.

Results

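The miR-30 family was examined in isolated cardiomyocytes of mice with and without pressure overload. Its 10 members were the arms of miR-30a to miR-30e named in a list, namely mmu-miR-30a-5p, mmu-miR-30b-5p, mmu-miR-30c-5p, mmu-miR-30d-5p, mmu-miR-30e-5p, mmu-miR-30a-3p, mmu-miR-30c-1-3p, mmu-miR-30c-2-3p, mmu-miR-30d-3p and mmu-miR-30e-3p (written below without the species prefix) and were picked by name, with earlier results of these data known. All 10 were found among the 697 mature miRNAs counted, and all 10 passed the filter of a mean above 100 counts over the 8 libraries. miR-30b-3p, the other arm of the miR-30b hairpin, was not on the list and is given only where its hairpin is described. Small RNA was sequenced from male mice that had undergone transverse aortic constriction (TAC), a surgical narrowing of the aorta that loads the left ventricle, or sham surgery. The mice were 2 months old at surgery, and their hearts were taken 14 weeks later and perfused on a Langendorff system to release the cardiomyocytes. There were 4 Sham and 4 TAC libraries, each made from a portion of the myocytes of 1 heart. The labels give the cells as cardiomyocytes and name no strain or transgene, and the model therefore samples a single late time after surgery in 1 sex.

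A miRNA gene is transcribed into a hairpin, from which Drosha and Dicer release a short duplex. One strand is loaded into Argonaute as the guide, and the partner strand is mostly degraded. The guide finds its mRNA targets mainly through bases 2 to 8, the seed, so that miRNAs with the same seed form a family with overlapping targets. In the heart, members of the miR-30 family are abundant in cardiomyocytes and are known to repress connective tissue growth factor, a matrix-inducing factor, as well as p53, the autophagy factor Beclin 1 and other transcripts. The 5p arm is the usual guide of the miR-30 hairpins and the 3p arm is its partner strand.

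RefSeq held a mature sequence for 7 of the 10 members, written here 5′ to 3′ with the seed in capitals. The 3 guides among them are shown because they share a single seed and so have overlapping potential targets, although targeting was not measured here.
miR-30a-5p: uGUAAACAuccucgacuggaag
miR-30e-5p: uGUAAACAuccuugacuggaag
miR-30c-5p: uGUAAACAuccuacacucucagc
Counted from 1 at the 5′ end, miR-30a-5p and miR-30e-5p differ by the single substitution C13U, and both share their first 12 bases with miR-30c-5p. With only 1 base between them, tags of miR-30a-5p and miR-30e-5p that carry a sequencing error or were assigned to several miRNAs could be split between the 2 names, and how such tags were handled is not given in the sources used here. The study's quantitative PCR primer for miR-30d-5p, made from the mature sequence, also differs by 1 base from its miR-30a-5p primer. Tags of miR-30a-5p and miR-30d-5p could therefore be split in the same way. The arms of miR-30b and miR-30d had no entry in RefSeq, so their seeds were not compared there. Bases 2 to 8 of the study's miR-30d-5p primer are those of the seed of these 3 guides. Among the counted miRNAs with a RefSeq sequence, the only other one of this seed was miR-384-5p, with 6 counts in all 8 libraries together and 0 to 3 in any of them. The partner strands are shown because they carry other seeds and so belong to 2 further groups of potential targets.
miR-30a-3p: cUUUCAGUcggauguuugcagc
miR-30e-3p: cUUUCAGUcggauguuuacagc
miR-30c-2-3p: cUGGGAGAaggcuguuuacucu
miR-30c-1-3p: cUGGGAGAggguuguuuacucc
Here miR-30a-3p and miR-30e-3p share a seed and differ by G18A, and miR-30c-1-3p and miR-30c-2-3p share another and differ by G9A, U12C and C22U, written from the first to the second. Among the counted miRNAs with a RefSeq sequence, no other had either of these seeds, and the 3p arms of miR-30b and miR-30d were not compared here either. On the mouse build GRCm38.p6, the hairpin Mir30a lies on the plus strand at chr1:23272269-23272339 outside any annotated gene, and Mir30c-2 lies 19432 bases away at chr1:23291701-23291784, in an exon of the long non-coding RNA gene Gm27028 on the same strand. On the minus strand of chromosome 4, Mir30c-1 at chr4:120769534-120769622 and Mir30e at chr4:120772606-120772697 start 3072 bases apart in an intron of Nfyc, which encodes a subunit of the transcription factor NF-Y. Both miR-30c hairpins release the same 5p arm, and the counts of miR-30c-5p therefore hold the output of 2 loci.

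The Sham libraries held 4005668 to 5392576 miRNA counts and the TAC libraries 5507169 to 7798943, and no library was a copy of another. Markers of cardiomyocytes (miR-1a-3p, miR-133a-3p, miR-208a-3p, miR-208b-3p and miR-499-5p) summed to 160712 to 198133 counts per 1000000 miRNA counts (CPM) in Sham and 194455 to 245941 in TAC, and all 5 were counted in every library. The 2 endothelial markers summed to 49248 to 72051 CPM in Sham and 29274 to 34557 CPM in TAC, without overlap. The summed erythroid, fibroblast and smooth muscle, and leukocyte markers overlapped between the groups, as did those of cardiomyocytes. Means in Sham and TAC were 962 and 330 CPM for erythroid, 47601 and 42551 for fibroblast and smooth muscle, and 1815 and 1109 for leukocyte markers. The cardiomyocyte mean was higher in TAC, at 222021 against 177299 CPM. One of the endothelial markers, miR-126a-3p, is also 1 of the 2 miRNAs to which the study scaled its small RNA data, the other being miR-19b-3p. The study describes both as unaltered and reports that quantitative PCR verified this. Here that scaling was applied as 1 factor for the whole TAC group, a choice of the present fit, which multiplies the TAC library sizes by 0.537 and so raises every log2 fold change of TAC over Sham by 0.90 compared with library totals. The median log2 fold change over the 223 tested miRNAs was 0.61 by these reference miRNAs, -0.29 by library totals and -0.08 by trimmed mean of M values (TMM). For this reason each member is given both ways, and the ratios inside a library, which no scaling can move, are given separately. In bulk samples such as these, fewer cells of a type and less RNA per cell cannot be told apart.

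The 5p guides made up nearly the whole family. By mean CPM among the 697 miRNAs, miR-30a-5p ranked 15 in Sham and 17 in TAC, miR-30e-5p 18 and 22, miR-30d-5p 22 and 23, miR-30c-5p 24 and 27, and miR-30b-5p 50 and 52. In the Sham libraries the members together took 5.54%, 6.16%, 6.26% and 8.15% of all miRNA counts, and in the TAC libraries 4.19%, 4.19%, 3.92% and 3.52%. Every TAC library was thus below every Sham library, with means of 6.53% ± 1.13 and 3.95% ± 0.314 (SD, n = 4 each), a description for which no test was made. The 95% Wilson interval of any of these shares spans at most 0.0268 percentage points to either side and covers counting error only.

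For miR-30a-5p, the most abundant member, the CPM by library total was 19332, 19724, 23233 and 26042 in Sham 1 to 4 and 13225, 12512, 11364 and 9556 in TAC 1 to 4. For miR-30e-5p it was 14214, 16979, 16688 and 24121 in Sham and 10638, 9861, 8984 and 8751 in TAC. In both, the highest TAC library stayed below the lowest Sham library, and Sham 4 was the highest of the Sham libraries. By library totals both fell, with log2 fold changes of -0.92 ± 0.14 (SE, n = 4 each; edgeR quasi-likelihood adjusted p = 0.00224) for miR-30a-5p and -0.91 ± 0.16 (edgeR adjusted p = 0.00502) for miR-30e-5p. Both also fell with TMM, by 0.72 (edgeR adjusted p = 0.0196) and 0.71 (edgeR adjusted p = 0.0328) on the log2 scale. Scaled to the reference miRNAs, the log2 fold changes were -0.023 ± 0.14 (edgeR adjusted p = 0.892) and -0.016 ± 0.16 (edgeR adjusted p = 0.932), so that neither difference exceeded the spread between libraries. By the reference miRNAs and by library totals alike, these 2 members stood at ranks 21 and 23 from the lowest log2 fold change of the 223 tested miRNAs, near the reference miRNAs miR-19b-3p (rank 15) and miR-126a-3p (rank 29).

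For miR-30d-5p the CPM was 9892, 11544, 11271 and 15543 in Sham and 8695, 8520, 8572 and 7604 in TAC. For miR-30c-5p, the product of 2 hairpins, it was 8862, 9945, 8476 and 12082 in Sham and 6794, 8054, 7331 and 6927 in TAC. For miR-30b-5p, the least abundant guide, it was 1752, 1884, 1566 and 1927 in Sham and 1119, 1426, 1467 and 1136 in TAC. Again no TAC library reached the lowest Sham library, but the gap was narrower than for miR-30a-5p and miR-30e-5p. By library totals the log2 fold changes were -0.53 (edgeR adjusted p = 0.0264) for miR-30d-5p, -0.44 (edgeR adjusted p = 0.0412) for miR-30c-5p and -0.47 (edgeR adjusted p = 0.0372) for miR-30b-5p, whereas scaled to the reference miRNAs they were positive, at 0.37 ± 0.14 (edgeR adjusted p = 0.0428), 0.46 ± 0.13 (edgeR adjusted p = 0.0123) and 0.43 ± 0.14 (edgeR adjusted p = 0.0197). With TMM they were -0.33, -0.23 and -0.26, and none passed. The edgeR fit takes the reference factor as known. When the factor was computed anew in each of the 70 arrangements of the libraries, the two-sided exact permutation p of the reference-scaled difference was 0.257 for miR-30d-5p, 0.143 for miR-30c-5p and 0.171 for miR-30b-5p. The sign of the change of these 3 guides was therefore set by the choice of scaling.

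**Figure D1:**
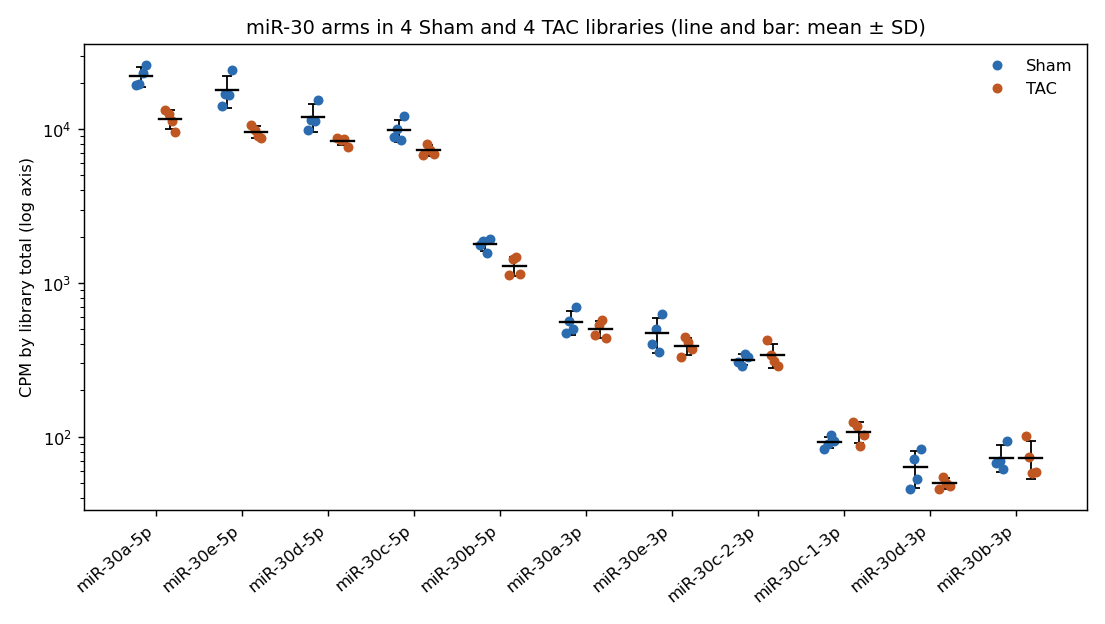
CPM by library total (log axis) of the 10 miR-30 members and of miR-30b-3p, with 1 point per library, 4 Sham and 4 TAC, and lines and bars for the mean ± SD. The TAC points of the 5 guides on the left lie below all Sham points, while Sham and TAC overlap in every 3p arm.

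Levels of the guides followed 1 order in all 4 Sham and all 4 TAC libraries, miR-30a-5p over miR-30e-5p, miR-30d-5p, miR-30c-5p and miR-30b-5p. Within Sham, neighbours among the first 4 of these overlapped in their ranges over libraries, and only miR-30b-5p was clear of the member above it, at a mean 5.50 times below miR-30c-5p. Within TAC the ranges of miR-30e-5p and miR-30d-5p were separate as well. The 3p arms followed, from miR-30a-3p at rank 78 of all miRNAs in Sham and 72 in TAC, over miR-30e-3p (85 and 81), miR-30c-2-3p (94 and 86) and miR-30c-1-3p (140 and 120), to miR-30d-3p (156 and 162). The ranges of miR-30a-3p and miR-30e-3p overlapped in both groups, and those of miR-30e-3p and miR-30c-2-3p overlapped in TAC only.

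Among the partner strands, miR-30a-3p had a CPM of 472, 567, 504 and 700 in Sham and 460, 533, 574 and 436 in TAC. For miR-30e-3p the CPM was 402, 499, 355 and 629 in Sham and 332, 444, 413 and 373 in TAC. The groups overlapped in both, unlike in the guides from the same hairpins. The CPM of miR-30c-2-3p was 308, 287, 346 and 329 in Sham and 428, 342, 310 and 289 in TAC. For miR-30c-1-3p it was 83.8, 89.8, 102 and 94.1 in Sham and 124, 117, 86.7 and 103 in TAC. These 2 members of the shared UGGGAGA seed were the only members with a positive log2 fold change by library totals, 0.11 and 0.22, and neither passed. For miR-30d-3p, the rarest member, the CPM was 45.6, 71.8, 53.2 and 83.6 in Sham and 45.9, 54.9, 50.3 and 48.0 in TAC, again with overlap.

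Scaled to the reference miRNAs, all 5 partner strands were higher in TAC, with log2 fold changes of 1.12 ± 0.16 for miR-30c-1-3p (edgeR adjusted p = 3.67e-04), 1.01 ± 0.15 for miR-30c-2-3p (edgeR adjusted p = 5.78e-04), 0.74 ± 0.16 for miR-30a-3p (edgeR adjusted p = 0.00336), 0.63 ± 0.19 for miR-30e-3p (edgeR adjusted p = 0.0178) and 0.55 ± 0.21 for miR-30d-3p (edgeR adjusted p = 0.0399). By library totals the last 3 were negative at -0.16, -0.27 and -0.35, and none of the 5 passed. With the factor computed anew, the two-sided exact permutation p was 0.0286, the smallest that 70 arrangements can give, for miR-30c-1-3p and miR-30c-2-3p, 0.0571 for miR-30a-3p and 0.0857 for both miR-30e-3p and miR-30d-3p. miR-30c-1-3p and miR-30c-2-3p were thus the members below 0.05 in both tests under this scaling. The permutation p-values were not adjusted for the number of members.

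Counted over the list, 8 of 10 members were higher in TAC at an edgeR adjusted p below 0.05 when scaled to the reference miRNAs, 3 of 5 guides and 5 of 5 partner strands, where 63.7% of all tested miRNAs were also higher. None was lower, also none at an unadjusted p below 0.05, by edgeR under this scaling, where 0.897% of all were lower. With a fold change above 1.7 required as well, 2 members were left, miR-30c-1-3p and miR-30c-2-3p, against 36.8% of all. With the same reference miRNAs but 1 factor per library in place of 1 for the group, 3 of the 8 passed, miR-30a-3p, miR-30c-2-3p and miR-30c-1-3p, and the edgeR adjusted p of the other 5 ran from 0.0715 for miR-30e-3p to 0.183 for miR-30d-5p. The 8 became 3 without Sham 2, without Sham 3 or without TAC 2, and 5 without TAC 3. By library totals no member was higher, where 1.35% of all were. None was higher at an unadjusted edgeR p below 0.05 either, where 9 of 223 miRNAs were. By the same totals, 5 of 10 were lower, namely the 5 guides and none of the partner strands, where 20.6% of all were lower. These 5 became 3 without Sham 2, Sham 4 or TAC 3 and 2 without TAC 1, TAC 2 or TAC 4, while miR-30a-5p and miR-30e-5p passed whichever library was left out (edgeR adjusted p up to 0.0121 and 0.0194). With TMM 2 members were lower, miR-30a-5p and miR-30e-5p, where 8.52% of all were lower, and none was higher, where 4.93% of all were. At an unadjusted edgeR p below 0.05, 1 member was higher with TMM, where 27 of 223 miRNAs were. In CPM the TAC libraries lay wholly below the Sham libraries in all 5 guides, where 27.4% of all tested miRNAs did so, and lay wholly above in no member, where 3.59% did. In reference-scaled CPM, where the TAC values are divided by 0.537, the TAC libraries lay wholly above the Sham libraries in 6 of 10 members (miR-30c-5p, miR-30b-5p, miR-30a-3p, miR-30c-2-3p, miR-30c-1-3p and miR-30d-3p), where 54.7% of all did, and wholly below in none, where 0.448% did. In CPM by library total, the summed endothelial markers, both arms of miR-126a, were also lower in TAC without overlap. Scaled to the reference miRNAs, of which it is itself 1, miR-126a-3p overlapped between the groups (log2 fold change 0.10). The part of the endothelial markers in the result was not tested.

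The median log2 fold change of the 10 members was 0.50 by the reference miRNAs and -0.39 by library totals, beside 0.61 and -0.29 over all tested miRNAs. For the 5 guides it was 0.37 and -0.53, and for the 5 partner strands 0.74 and -0.16. Other abundant guide families measured in the same way lay higher in their medians. let-7, whose guides are known to hold back cell growth, had a median of 1.02 by the reference miRNAs and 0.12 by library totals over 9 members, all 9 of which were higher by the former and none of which passed in either direction by the latter. The 2 guides of miR-26 had medians of 0.75 and -0.14, and the 3 of miR-29, known repressors of collagen transcripts, 0.63 and -0.27, with 2 of 2 and 3 of 3 higher by the reference miRNAs and none passing by library totals. Whether the families differ from each other was not tested.

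**Figure D2:**
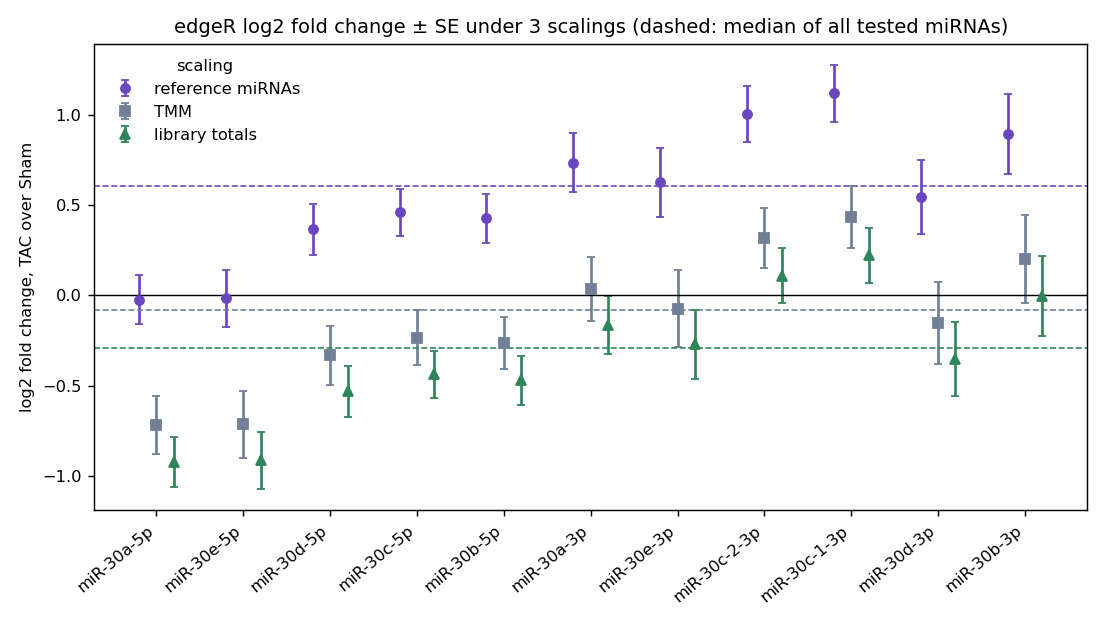
Log2 fold change of TAC over Sham ± SE from edgeR for each miR-30 arm (n = 4 libraries a group) under 3 scalings, with dashed lines at the median of all 223 tested miRNAs under each. Scaling moves all arms together, so that miR-30d-5p, miR-30c-5p and miR-30b-5p are above 0 by the reference miRNAs and below 0 by library totals and TMM, and miR-30a-5p and miR-30e-5p lie below the median of all miRNAs under each of the 3.

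The make-up of the guide pool, which does not depend on the scaling, differed between the groups. Of the summed counts of the 5 guides, miR-30d-5p held 18.3%, 19.2%, 18.4% and 19.5% in Sham and 21.5%, 21.1%, 22.7% and 22.4% in TAC. miR-30c-5p held 16.4%, 16.6%, 13.8% and 15.2% in Sham and 16.8%, 19.9%, 19.4% and 20.4% in TAC. Both shares were higher in every TAC library than in any Sham library, by 3.07 percentage points (18.9% ± 0.592 to 21.9% ± 0.757, SD, n = 4 each; two-sided exact permutation p = 0.0286) and by 3.65 percentage points (15.5% ± 1.26 to 19.1% ± 1.62; exact permutation p = 0.0286). In turn, miR-30e-5p held 26.3%, 28.3%, 27.3% and 30.3% in Sham and 26.3%, 24.4%, 23.8% and 25.8% in TAC, a difference of -2.95 percentage points (exact permutation p = 0.0286), although the first library of each group differed only in the second decimal. miR-30a-5p held 35.8%, 32.8%, 37.9% and 32.7% in Sham and 32.7%, 31.0%, 30.1% and 28.1% in TAC, a difference of -4.32 percentage points with a narrow overlap (exact permutation p = 0.0571). miR-30b-5p held 2.42% to 3.24% in Sham and 2.76% to 3.89% in TAC, a difference of 0.54 percentage points that did not pass (exact permutation p = 0.143). These are 5 shares that sum to the whole, so they are not independent, and the p-values are unadjusted with 0.0286 as the smallest possible. The miR-30d-5p share kept that smallest p whichever library was left out. The p rose to 0.0571 for miR-30e-5p without Sham 4 or any 1 TAC library, and for miR-30c-5p without any 1 Sham library. Tests with 1 library left out had 35 arrangements, again with 0.0286 as the smallest p. In both shares the groups stayed apart whichever library was left out. The largest half-width of a 95% Wilson interval was 0.195 percentage points and covers counting error only, and the SD between libraries of a group was larger for each of the 5 shares.

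**Figure D3:**
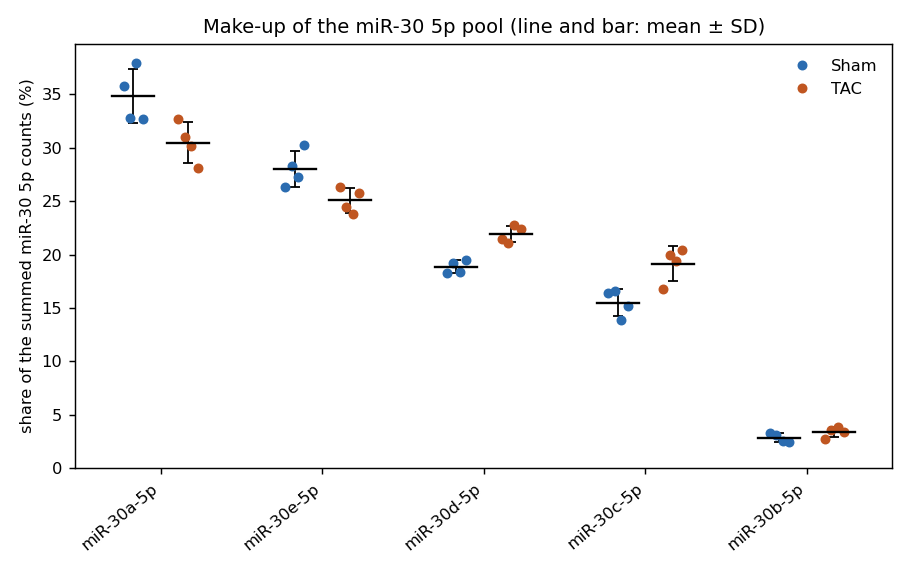
Share of each guide in the summed counts of the 5 miR-30 5p arms, in percent, with 1 point per library (4 Sham, 4 TAC) and lines and bars for the mean ± SD. The shares of miR-30d-5p and miR-30c-5p are higher in all TAC libraries (means 21.9% and 19.1%, against 18.9% and 15.5%), and those of miR-30a-5p and miR-30e-5p have lower means in TAC.

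The balance of the 2 arms also moved, as a ratio inside each library. The 3p members together held 2.31% ± 0.127 of all member counts in Sham and 3.52% ± 0.143 in TAC, without overlap, while their share of all miRNA counts was 0.151% ± 0.0236 and 0.139% ± 0.0104 and overlapped. For the miR-30a hairpin there were 24.4, 28.8, 21.7 and 26.9 counts of miR-30a-3p per 1000 of miR-30a-5p in Sham and 34.8, 42.6, 50.5 and 45.6 in TAC. For the miR-30e hairpin there were 28.3, 29.4, 21.3 and 26.1 per 1000 in Sham and 31.3, 45.0, 45.9 and 42.6 in TAC. In both, every TAC library was above every Sham library. The log2 ratio was higher in TAC by 0.77 ± 0.19 (SE, n = 4 each; limma adjusted p = 0.00845 over 52 arm pairs; two-sided exact permutation p = 0.0286) for miR-30a and by 0.64 ± 0.19 (limma adjusted p = 0.0254; exact permutation p = 0.0286) for miR-30e.

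For the 2 hairpins of miR-30c the denominator is the same 5p arm, and the ratios are therefore not independent. The counts of miR-30c-1-3p per 1000 of miR-30c-5p were 9.46, 9.03, 12.1 and 7.79 in Sham and 18.3, 14.5, 11.8 and 14.9 in TAC, and those of miR-30c-2-3p were 34.7, 28.8, 40.8 and 27.2 in Sham and 62.9, 42.5, 42.3 and 41.7 in TAC. Sham 3 and TAC 3 overlapped narrowly in the first, while the groups did not overlap in the second, where TAC 1 stood apart. The miR-30c-1 ratio was higher by 0.64 ± 0.20 on the log2 scale (limma adjusted p = 0.0282; exact permutation p = 0.0571), and the miR-30c-2 ratio differed by 0.52 ± 0.20 without passing (limma adjusted p = 0.0849; exact permutation p = 0.0286). For miR-30d the ratio was lowest of all, at 4.61, 6.22, 4.72 and 5.38 per 1000 in Sham and 5.28, 6.44, 5.87 and 6.32 in TAC, a log2 difference of 0.20 ± 0.18 (limma adjusted p = 0.504). For miR-30b, whose 3p arm was not on the list, the ratio was 38.4, 37.2, 39.2 and 49.0 per 1000 in Sham and 90.4, 52.1, 39.4 and 52.2 in TAC, with a log2 difference of 0.46 ± 0.22 (limma adjusted p = 0.154).

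**Figure D4:**
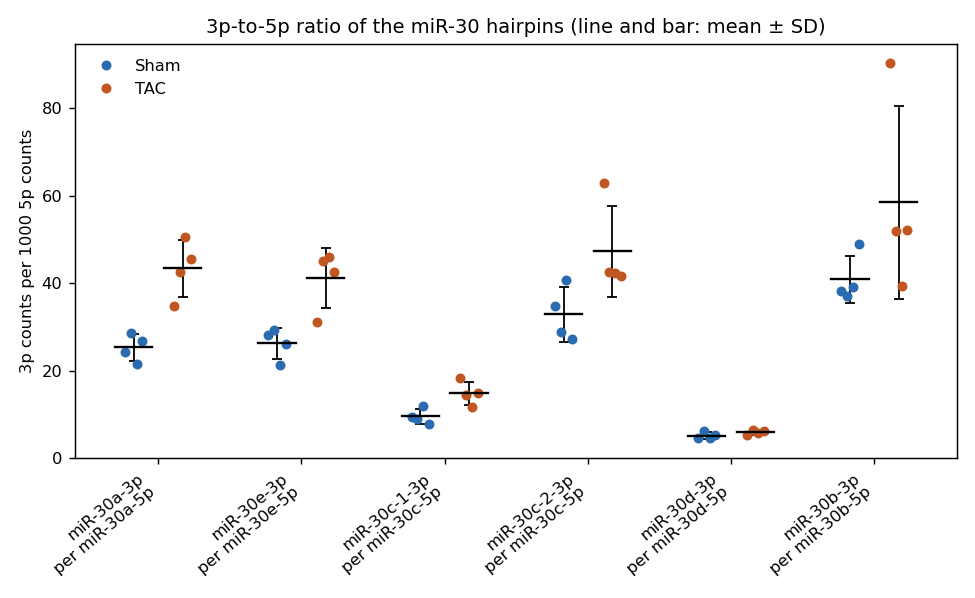
Counts of the 3p arm per 1000 counts of the 5p arm of the same miR-30 hairpin, with 1 point per library (4 Sham, 4 TAC) and lines and bars for the mean ± SD. The groups do not overlap for miR-30a, miR-30e and miR-30c-2, and the TAC 1 library lies highest for miR-30b (90.4) and miR-30c-2 (62.9).

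Thus 3 of 6 miR-30 hairpins, miR-30a, miR-30e and miR-30c-1, passed with a higher 3p-to-5p ratio in TAC, where 13.5% of the 52 arm pairs did, and none passed with a lower ratio, as in 0% of all by limma. The groups lay apart with TAC above in 3 of 6, miR-30a, miR-30e and miR-30c-2, where 13.5% of all arm pairs did, and with TAC below in none, where 1.92% did. The log2 change was positive in all 6, with a median of 0.58 and a range of 0.20 to 0.77, beside a median of 0.11 and 61.5% positive over the 52 pairs. All 52 pairs were taken as 3p over 5p, whichever arm is the guide. Outside miR-30, a higher ratio therefore need not mean more partner strand, and the comparison is not one of guide against partner. The other 4 pairs that passed, named after their values were seen, were miR-199b, miR-340, miR-434 and miR-24-2. The miR-30a ratio passed without any 1 library (limma adjusted p up to 0.0388), whereas the p reached 0.106 for both miR-30e and miR-30c-1, and miR-30a alone was left without Sham 4, TAC 2 or TAC 4. When arm pairs down to a mean of 10 counts were admitted, no miR-30 hairpin passed (smallest limma adjusted p 0.107, with 4 at an unadjusted p below 0.05). Of the 129 pairs then tested, 0 passed with a higher ratio and 2 with a lower ratio. When the variance was also allowed to follow the abundance, 2 miR-30 hairpins passed. Of all 129 pairs, 5 then passed with a higher and 3 with a lower ratio. That alternative was added after the data had been examined.

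**Figure D5:**
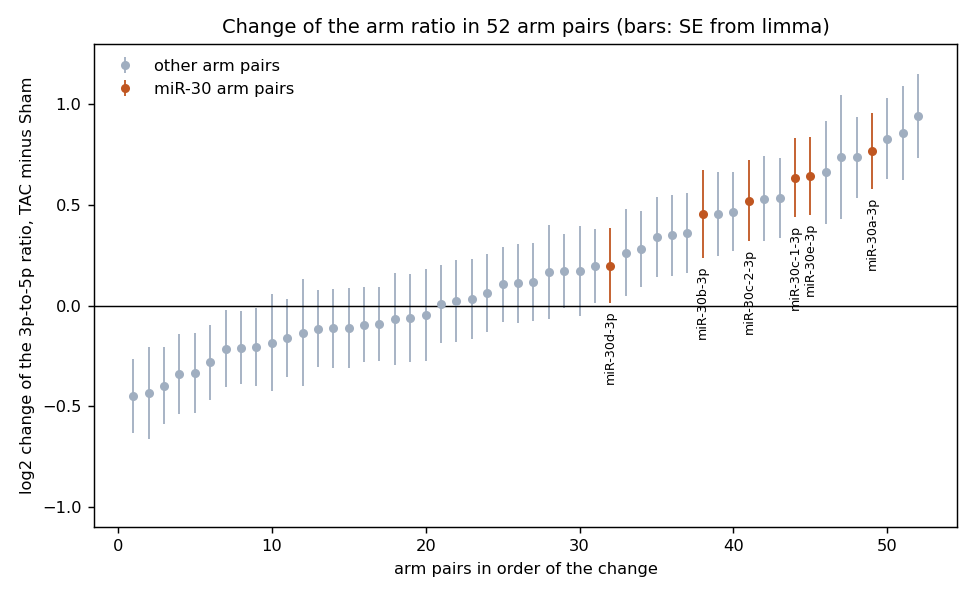
Log2 change of the 3p-to-5p ratio (TAC minus Sham) in 52 arm pairs with both arms above a mean of 100 counts, in order of the change, with SE bars from limma (n = 4 libraries a group). The 6 miR-30 pairs lie between 0.20 and 0.77, all above the median of 0.11.

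Arms that derive from neighbouring hairpins were also set against each other within each library. The ratio of miR-30c-2-3p to miR-30a-3p, from the chromosome 1 locus, was 0.579 ± 0.107 in the Sham and 0.693 ± 0.166 in the TAC libraries (SD, n = 4 each; two-sided exact permutation p = 0.286). The ratio of miR-30c-1-3p to miR-30e-3p, from the Nfyc intron, was 0.206 ± 0.0593 and 0.281 ± 0.0683 (exact permutation p = 0.171). For the miR-30b and miR-30d hairpins, which are known to be neighbours, the ratio of the 5p arms was 0.151 ± 0.0239 and 0.154 ± 0.0195 (exact permutation p = 0.8) and that of the 3p arms 1.18 ± 0.209 and 1.48 ± 0.485 (exact permutation p = 0.314). In all 4 ratios the groups overlapped, and with 4 libraries a group differences of this size were within the spread between libraries.

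To ask which other miRNAs varied most like the guide pool, the root mean square difference of log2(CPM + 1), by library total and centred on each miRNA's mean, was taken over the 8 libraries. Among the 212 tested miRNAs other than the miR-30 arms, the nearest were miR-181a-1-3p at 0.168, miR-181c-3p at 0.172, miR-15a-5p at 0.177, miR-181c-5p at 0.186 and miR-322-5p at 0.188, with a median of 0.418 over all 212. Within the family the distance ran from 0.104 for miR-30e-5p, which is itself in the pool, to 0.503 for miR-30c-1-3p, beyond that median. The mean CPM of miR-181c-5p, for example, went from 482 ± 25.1 in Sham to 308 ± 30.1 under TAC (SD, n = 4 each), a log2 fold change of -0.65 by library totals (edgeR adjusted p = 0.00649) and 0.25 by the reference miRNAs (edgeR adjusted p = 0.0991). The likeness is a description over 8 libraries of 2 groups, so the difference between Sham and TAC enters it. By library totals, all 5 of these miRNAs had a negative log2 fold change, from -0.93 for miR-322-5p to -0.47 for miR-181c-3p.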

How the data were processed

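Total RNA was extracted with TRIzol, and small RNA libraries were sequenced by a commercial provider. The authors deposited, per library, whole-number counts of tags on each mature mouse miRNA, without normalization. Per the labels, the build was mm10, and the submitters' processing notes name StringTie 1.3.1; the aligner, the miRNA reference version and the handling of tags that fit several miRNAs are not given in the sources used here. Groups were taken from the labels. The members and lists were chosen with earlier results of these data known.

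Counts were fitted with edgeR 4.0.16 in R 4.3.3 (estimateDisp, glmQLFit, glmQLFTest, group only), calling adjusted p below 0.05 (Benjamini-Hochberg) among the 223 miRNAs whose mean exceeded 100 counts. Library sizes were the miRNA totals, times 0.537 in TAC, which is how far the mean CPM of the study's reference miRNAs, miR-19b-3p and miR-126a-3p, differed between the groups (geometric mean of both TAC-to-Sham ratios). The common biological coefficient of variation was 0.255, above the counting error at these depths. The SE was obtained by dividing each log2 fold change by the square root of its F. Arm ratios, log2((3p + 0.5)/(5p + 0.5)), were fitted with limma 3.58.1 over the 52 pairs with both means above 100 counts. Single values were compared by two-sided exact permutation over 70 arrangements, or 35 with 1 library left out. Named were all members, miR-30b-3p, the reference miRNAs, miRNAs of a member's seed, the 5 nearest profiles, and the let-7, miR-26 and miR-29 families. Alternatives were library totals, TMM, DESeq2 1.42.0, a separate reference factor for every library, miR-126a-3p or miR-19b-3p alone, other count filters, a pseudocount of 5, a fold above 1.7, a replicate block and each library left out. A variance trend in limma was added after the data had been examined. Both fits were tested on simulated data. Mature sequences are those of RefSeq (GRCm38.p6) and gene positions are from the same build.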

Additional observations from a re-analysis of the deposited data

Results flagged for a closer look

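In 3 of 54 groups of 4 libraries, 1 library lay far from the other 3 by Dixon's ratio at the 95% level, a rate near the 1 in 20 that chance gives. In TAC 4, miR-30d-5p was lowest, at 7604 CPM against 8520 in the nearest TAC library. In TAC 1, the ratio of miR-30c-2-3p to miR-30c-5p was highest, at 62.9 per 1000 against 42.5 in the nearest. In Sham 4, the ratio of miR-30b-3p to miR-30b-5p was highest, at 49.0 per 1000 against 39.2 in the nearest. TAC 4 also held 995 counts of the epithelial miR-200b-3p, against 79 to 209 in the other 7 libraries, and its part in the miR-30d-5p value was not tested.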

How the results depend on the processing

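The scaling decided most calls on single members. Of the 8 members higher by the reference miRNAs, 5 remained in number with miR-126a-3p alone, 3 with 1 factor per library, 2 with a fold above 1.7, 1 with DESeq2 and its own size factors, and 0 with TMM or library totals, and leaving out 1 library gave 3 to 8. Members lower in TAC numbered 0 by the reference miRNAs, 5 by library totals, 2 with TMM and 2 with DESeq2 and its own size factors, and the 5 by library totals ranged from 2 to 5 with 1 library left out. Log2 fold changes turned negative by library totals for miR-30d-5p (-0.53), miR-30c-5p (-0.44), miR-30b-5p (-0.47), miR-30a-3p (-0.16), miR-30e-3p (-0.27), miR-30d-3p (-0.35) and miR-30b-3p (-0.0024). With TMM they turned negative for miR-30d-5p (-0.33), miR-30c-5p (-0.23), miR-30b-5p (-0.26), miR-30e-3p (-0.073) and miR-30d-3p (-0.15), and with DESeq2 and its own size factors for the same 5 (-0.28, -0.19, -0.22, -0.022 and -0.098). Near 0, miR-30a-5p and miR-30e-5p were positive with miR-19b-3p alone (0.079 and 0.087) and ranged from -0.16 to 0.12 and from -0.13 to 0.20 with 1 library left out. Such ranges also crossed 0 by library totals for miR-30c-2-3p (-0.017 to 0.18) and miR-30b-3p (-0.20 to 0.14), and for the ratio of miR-30b-5p to miR-30d-5p (-0.053 to 0.12). The 3 hairpins with a higher arm ratio became 0 when means down to 10 counts were admitted, with more and shallower pairs tested, and 1 to 3 with 1 library left out. The miR-30a-5p share of the guide pool, at -4.32 percentage points, was -4.59 of all members (exact permutation p = 0.0286). The fall of the family's share of all counts, 2.57 percentage points, ranged from -2.91 to -2.03 with 1 library left out. The cause of these changes was not tested, beyond the shift that each scaling applies to all miRNAs.

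The study describes its mice as 4 pairs, and Sham and TAC libraries share replicate numbers, but the sources do not say that a number marks a pair. The deviations of same-numbered libraries correlated at 0.168, -0.370, 0.315 and -0.217, and only number 3 correlated best with its own number. The numbers were therefore not taken as pairs. With the replicate block, 6 members were higher by the reference miRNAs and 2 were lower by library totals. With the same block, 1 hairpin (miR-30a, limma adjusted p = 0.0232) had a higher arm ratio, where 5 of all 52 arm pairs did. The log2 fold change of miR-30e-5p by the reference miRNAs was then 0.0088 (edgeR adjusted p = 0.975). At a depth of 4005668 counts or more, the counting intervals of the family share and the guide shares were narrower than the spread between 4 libraries. That spread is the limit for these shares. No such interval was computed for the rare 3p arms, such as miR-30d-3p with 211 counts in Sham 1, where counting error weighs more.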
